A study of Mus musculus with 8 samples.

Results

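Imprinted gene clusters were followed through mouse spermatogenesis as 5 intervals of the mm9 genome, set by position and not by any measured value. The intervals were H19/Igf2/Kcnq1 (chr7:149700001-150700000), Snrpn/Ube3a/Ndn (chr7:66400001-69600000), Dlk1/Meg3 (chr12:110600001-111300000), Igf2r (chr17:12800001-13100000) and Gnas (chr2:173900001-174200000). They cover 5.5 Mb, and over the 8 deposited lists they held 85649 of the 37444400 summits on the autosomes and the X chromosome, against 8434619 on the rest of the same 4 chromosomes. A summit is the point of highest coverage of a stretch of DNA that protein shielded from micrococcal nuclease (MNase), which cuts bare DNA.

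Testis cells enriched for spermatocytes (in meiosis), round spermatids (haploid) and condensing spermatids (which exchange histones for transition proteins and protamines) came from animals lacking H2A.L.2, a testis histone variant, and from wild-type (WT) animals. Spermatocytes and round spermatids gave 1 nucleosome library per genotype, and condensing spermatids gave 1 library of nucleosome-sized fragments (130 to 170 bp) and 1 of small structures (40 to 80 bp) per genotype. Strain, age, number of animals and the kind of allele are not stated in the sources used here, and lists of DNA positions hold no marker RNA by which the enrichment or the genotype could be checked. With 1 library in every group, no difference has a replicate check, and the 95% intervals given cover counting error only. The lists held 3779744 to 5385833 summits, and their depth in reads is unknown. Among the lists, both of small structures stood apart in the summit value, with a first percentile of 96 in H2A.L.2-less cells and 272 in WT, against 160 to 176 in the 6 nucleosome lists, and the H2A.L.2-less round spermatids by an even distribution of summits along the genome, given below.

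Imprinted genes are expressed from a single parental allele, and they lie in clusters controlled by DNA elements whose methylation is set in the germ line. The elements of H19/Igf2 and Dlk1/Meg3 are methylated in the male germ line, and those of the Kcnq1, Snrpn, Igf2r and Gnas clusters in the oocyte. Igf2 encodes a fetal growth factor and H19 a noncoding RNA, Kcnq1 encodes a potassium channel subunit, Snrpn a splicing protein, Ube3a a ubiquitin ligase and Ndn the growth suppressor necdin. Dlk1 encodes a membrane protein related to Notch ligands, Meg3 a noncoding RNA, Igf2r the receptor that clears IGF2, and Gnas the alpha subunit of a stimulatory G protein. In the RefSeq annotation (GRCm38.p6), which served for names and gene order only, 28 of 29 genes looked up were found. Their order was Atp10a, Ube3a, Snrpn, Snurf, Ndn, Magel2, Mkrn3 and Peg12 in the first chromosome 7 cluster, and H19, Igf2, Ins2, Ascl2, Cd81, Kcnq1, Kcnq1ot1, Cdkn1c, Slc22a18 and Phlda2 in the second. It listed 50 miRNA genes and 19 snoRNA genes that start between Meg3 and Mirg, and 17 snoRNA genes named Snord115 or Snord116 on chromosome 7.

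Of the 10 genes that name the intervals, 8 had a promoter in the RefSeq table (GRCm38.p6, 250 bases before to 50 after the start). Shown is the promoter with the most CG pairs in each interval, since CG pairs are where imprinted elements carry methylation. Capitals mark CG, which reads the same on both strands.
Igf2, chr7:142658755-142659054, minus strand: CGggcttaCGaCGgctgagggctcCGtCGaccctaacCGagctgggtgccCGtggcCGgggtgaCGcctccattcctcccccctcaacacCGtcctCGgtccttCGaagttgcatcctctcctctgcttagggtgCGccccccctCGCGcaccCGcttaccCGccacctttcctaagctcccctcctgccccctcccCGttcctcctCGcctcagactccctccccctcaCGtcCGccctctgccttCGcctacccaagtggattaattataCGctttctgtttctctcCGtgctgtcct
Ube3a, chr7:59228500-59228799, plus strand: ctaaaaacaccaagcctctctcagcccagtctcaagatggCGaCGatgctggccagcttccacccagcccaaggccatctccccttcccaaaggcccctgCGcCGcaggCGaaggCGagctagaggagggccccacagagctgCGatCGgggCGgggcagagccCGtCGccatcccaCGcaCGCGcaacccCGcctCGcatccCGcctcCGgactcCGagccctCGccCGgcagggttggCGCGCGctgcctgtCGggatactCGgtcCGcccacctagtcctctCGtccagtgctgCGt
Meg3, chr12:109540746-109541045, plus strand: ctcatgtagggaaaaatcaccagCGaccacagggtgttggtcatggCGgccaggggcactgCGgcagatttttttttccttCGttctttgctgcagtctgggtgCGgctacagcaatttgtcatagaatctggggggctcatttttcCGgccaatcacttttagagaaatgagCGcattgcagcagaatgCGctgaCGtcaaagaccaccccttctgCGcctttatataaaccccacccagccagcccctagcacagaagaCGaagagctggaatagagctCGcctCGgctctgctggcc
Igf2r, chr17:12769657-12769956, minus strand: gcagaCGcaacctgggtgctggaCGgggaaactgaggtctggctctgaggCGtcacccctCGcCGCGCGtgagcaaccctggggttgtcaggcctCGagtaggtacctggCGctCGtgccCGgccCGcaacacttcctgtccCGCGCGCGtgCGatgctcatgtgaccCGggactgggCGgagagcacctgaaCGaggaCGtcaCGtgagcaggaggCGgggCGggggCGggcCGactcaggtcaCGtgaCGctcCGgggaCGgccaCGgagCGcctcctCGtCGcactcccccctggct
Gnas, chr2:174329756-174330055, plus strand: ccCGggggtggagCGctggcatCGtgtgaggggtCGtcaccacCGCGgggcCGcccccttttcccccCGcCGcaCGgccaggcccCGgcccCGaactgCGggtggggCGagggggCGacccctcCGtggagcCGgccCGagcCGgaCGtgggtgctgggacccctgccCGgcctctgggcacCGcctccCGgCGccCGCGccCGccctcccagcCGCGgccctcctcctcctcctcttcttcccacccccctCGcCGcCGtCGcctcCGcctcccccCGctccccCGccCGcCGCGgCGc
These promoters hold 24 (Igf2), 29 (Ube3a), 13 (Meg3), 34 (Igf2r) and 40 (Gnas) CG pairs in 300 bases. Over all 32851 RefSeq promoters the median was 7, the 10th and 90th percentiles were 1 and 31, and 94.6% held at least 1. The Gnas and Igf2r promoters thus lie above the 90th percentile, and those of Igf2, Ube3a and Meg3 between the median and it. The other promoters of the 8 genes held 1 to 28, with 11 for Ndn, 9 for Dlk1 and 2 to 7 for the 4 of Snrpn. The lists use another build than these sequences, so no summit was placed on a promoter.

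The first question was whether the clusters carry more or fewer summits than the rest of their chromosomes. Density was counted per 100 kb window and divided by that of the rest of the same chromosome in the same library. The clusters went in opposite directions: H19/Igf2/Kcnq1, Dlk1/Meg3, Igf2r and Gnas lay above the rest in all 8 libraries, and Snrpn/Ube3a/Ndn lay below it in all 8. Pooling them hides this, since the 5 intervals together lay between 0.862 and 0.982 times the expected number in the 8 libraries.

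H19/Igf2/Kcnq1 held 3258 summits in H2A.L.2-less spermatocytes, 1.53 times the density of the rest of chromosome 7 (interval 1.48 to 1.58), and 3631 in WT spermatocytes, 1.57 times (1.52 to 1.63). Round spermatids had 2828 summits in H2A.L.2-less cells (1.38 times, 1.33 to 1.43) and 3551 in WT (1.48 times, 1.43 to 1.53). Condensing nucleosomes gave 2410 in H2A.L.2-less cells (1.22 times, 1.17 to 1.27) and 2377 in WT (1.25 times, 1.2 to 1.3). Of the 3 nucleosome stages the condensing one was thus the lowest for this cluster in both genotypes, on this scale. Small structures were again dense, with 3297 in H2A.L.2-less cells (1.6 times, 1.55 to 1.66) and 3927 in WT (1.49 times, 1.44 to 1.54). Against 135 other stretches of 1 Mb on chromosome 7, the cluster had more summits than 132 in both spermatocyte lists, but more than 112 in H2A.L.2-less and 120 in WT condensing nucleosomes.

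Dlk1/Meg3 held 1832 summits in H2A.L.2-less spermatocytes (1.34 times the rest of chromosome 12, 1.28 to 1.41) and 2091 in WT spermatocytes (1.42 times, 1.36 to 1.48). In round spermatids it had 1579 in H2A.L.2-less cells (1.15 times, 1.1 to 1.21) and 2216 in WT (1.45 times, 1.39 to 1.51). Condensing nucleosomes numbered 1381 in H2A.L.2-less cells (1.22 times, 1.16 to 1.29) and 1304 in WT (1.19 times, 1.12 to 1.25). Its small structures were the densest of the 5 clusters relative to their chromosomes in both genotypes, with 2181 in H2A.L.2-less cells (1.90 times, 1.82 to 1.98) and 2613 in WT (1.73 times, 1.67 to 1.8), although the intervals overlap those of Igf2r in both genotypes.

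Igf2r held 847, 723 and 700 nucleosome summits in H2A.L.2-less spermatocytes, round spermatids and condensing spermatids (1.39, 1.22 and 1.49 times the rest of chromosome 17). In WT the 3 stages had 942, 1032 and 640 (1.39, 1.48 and 1.4 times). Its small structures numbered 995 in H2A.L.2-less cells (1.75 times, 1.64 to 1.86) and 1229 in WT (1.69 times, 1.6 to 1.79). Gnas was closest to its chromosome, with 712, 645 and 526 nucleosome summits at the 3 stages in H2A.L.2-less cells (1.18, 1.11 and 1.1 times the rest of chromosome 2) and 857, 887 and 505 in WT (1.3, 1.33 and 1.08 times). In WT condensing nucleosomes the Gnas interval of 0.991 to 1.18 included 1. The small structures of Gnas numbered 865 in H2A.L.2-less cells (1.68 times, 1.57 to 1.79) and 1059 in WT (1.58 times, 1.49 to 1.68).

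Snrpn/Ube3a/Ndn was sparse throughout. H2A.L.2-less spermatocytes had 4283 summits there (0.628 times the rest of chromosome 7, 0.609 to 0.647) and WT spermatocytes 4113 (0.557 times, 0.540 to 0.574). Round spermatids had 5196 in H2A.L.2-less cells (0.790 times, 0.769 to 0.812) and 4553 in WT (0.591 times, 0.574 to 0.609). Condensing nucleosomes numbered 3927 in H2A.L.2-less cells (0.621 times, 0.602 to 0.641) and 3908 in WT (0.642 times, 0.622 to 0.663). The lowest ratios were those of small structures, with 2547 in H2A.L.2-less cells (0.387 times, 0.372 to 0.402) and 3482 in WT (0.413 times, 0.399 to 0.427). Of 41 other stretches of 3.2 Mb on chromosome 7, only 3 or 4 had fewer summits in any of the 8 libraries.

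Much of this excess is shared with the neighbourhood. Set against flanks of 5 Mb on each side in place of the rest of the chromosome, H19/Igf2/Kcnq1 lay between 0.953 and 1.08 in the 8 libraries and Dlk1/Meg3 between 0.936 and 1.03. Chromosome 7 ends less than 5 Mb beyond H19/Igf2/Kcnq1, so the distal flank of this cluster is shorter and its flank values rest mostly on the other side. Igf2r lay between 1.08 and 1.65, and Gnas between 1.07 and 1.22. Snrpn/Ube3a/Ndn was below its flanks too, at 0.504 to 0.799. The clusters on distal chromosome 7 and chromosome 12 thus lay near the density of their surroundings, on either side of it by library. Igf2r and Gnas lay above theirs and Snrpn/Ube3a/Ndn below in all 8 libraries. No counting interval is given for these flank ratios. An excess as small as the lowest of Igf2r and Gnas is therefore not told from counting error.

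**Figure D1:**
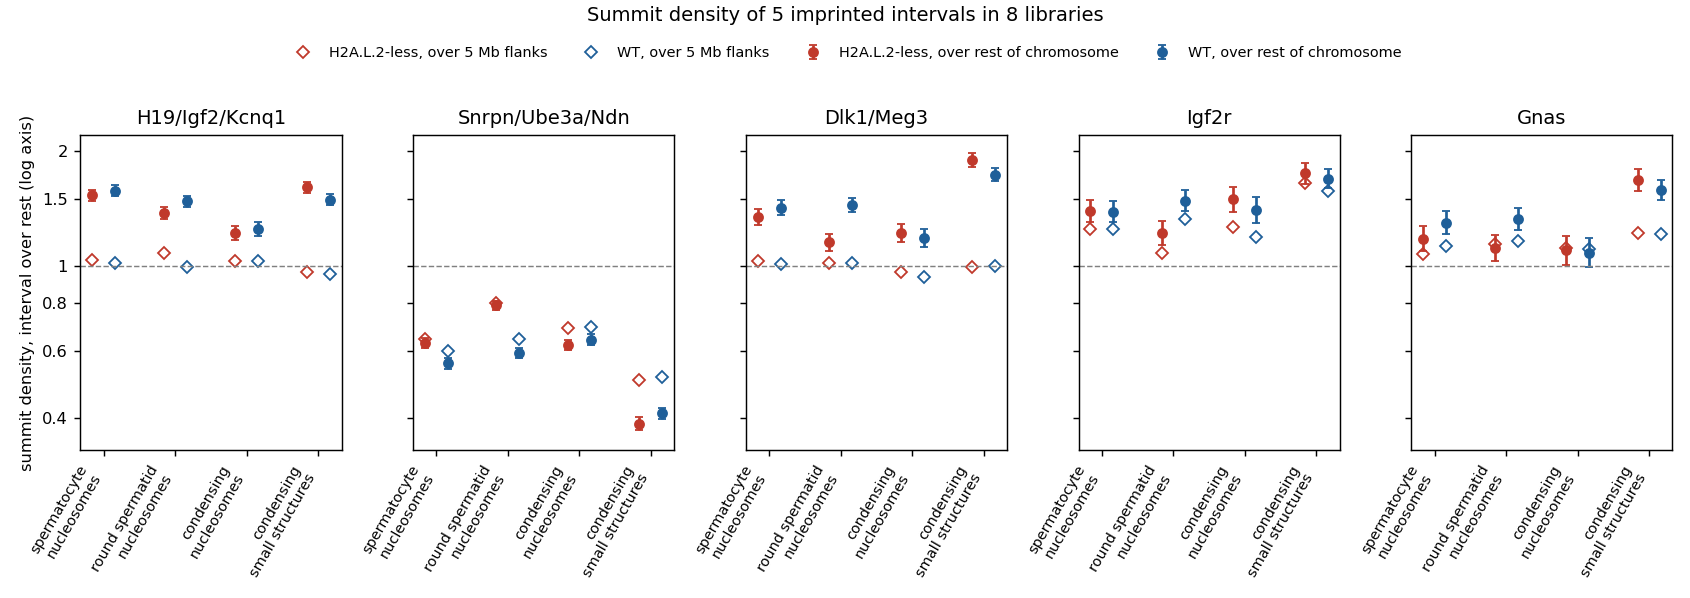
Summit density of each interval (5 panels) over the rest of its chromosome (filled circles, bars are 95% Poisson intervals of counting error) and over flanks of 5 Mb (open diamonds), on a log axis, for 4 library kinds, H2A.L.2-less left (red) and WT right (blue). Snrpn/Ube3a/Ndn lies below 1 in all 8 libraries and the other 4 lie above 1 over the rest of the chromosome, while the diamonds of H19/Igf2/Kcnq1 and Dlk1/Meg3 lie near 1.

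Single windows were called dense or sparse where they differed 1.5-fold or more from the rest of their chromosome, among windows with at least 20 summits. The 55 interval windows were read against 24016 windows of chromosomes 1 to 19. In spermatocytes 8 of the 55 were called dense in H2A.L.2-less cells (5.5% of all windows) and 9 in WT (7.95%), of which H19/Igf2/Kcnq1 had 6 in H2A.L.2-less cells and 7 in WT. Sparse calls numbered 25 in H2A.L.2-less spermatocytes (15.5% of all windows) and 26 in WT (21.3%), all of them among the 32 windows of Snrpn/Ube3a/Ndn. That cluster therefore holds far more sparse windows than the background share, and the dense calls come mostly from distal chromosome 7.

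In H2A.L.2-less round spermatids 1 interval window was called dense (0.683% of all windows) and 8 sparse (3.34%). In WT round spermatids 11 were dense (8.72%) and 26 sparse (22.2%). The low counts of the H2A.L.2-less library go with its low background, which is the evenness of that list over the whole genome. Condensing nucleosomes gave 2 dense windows in H2A.L.2-less cells (9.65%) and 2 in WT (9.42%), fewer than the background share of 55 windows, and 25 sparse in H2A.L.2-less cells (22.1%) and 23 in WT (21.7%). Small structures gave 18 dense windows in H2A.L.2-less cells (24.1%) and 14 in WT (24.3%), and 28 sparse windows in H2A.L.2-less cells (43.2%) and 28 in WT (39.5%). For 55 windows, the 14 dense ones of WT are near the background share and the 18 of H2A.L.2-less cells somewhat above it. They include all 3 Igf2r windows and 6 of 10 H19/Igf2/Kcnq1 windows in each genotype.

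The clusters were next compared between genotypes, as the log2 of the density over the rest of the chromosome in H2A.L.2-less cells over that in WT. Round spermatids showed the widest differences. There the sparse cluster was less sparse in H2A.L.2-less cells and the 4 dense clusters were less dense: Snrpn/Ube3a/Ndn was at 0.42 (interval 0.36 to 0.48), Dlk1/Meg3 at -0.33 (-0.42 to -0.23), Igf2r at -0.28 (-0.42 to -0.14), Gnas at -0.25 (-0.40 to -0.11) and H19/Igf2/Kcnq1 at -0.10 (-0.17 to -0.03). Against the flanks of 5 Mb, Snrpn/Ube3a/Ndn stood at 0.31 and Igf2r at -0.30, but Dlk1/Meg3 was at -0.001, Gnas at -0.02 and H19/Igf2/Kcnq1 at 0.12, so the last of these turned its direction. Counting intervals here do not cover differences between libraries.

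By window, all 32 of Snrpn/Ube3a/Ndn were higher in H2A.L.2-less round spermatids, with a median log2 ratio of 0.44, against a median of 0.094 over all 24008 windows. All 7 windows of Dlk1/Meg3, all 3 of Igf2r, all 3 of Gnas and 7 of 10 of H19/Igf2/Kcnq1 were below 0. Over all 24008 windows, 13690 were above 0 and 10318 below. The highest was chr7:69400001-69500000 in Snrpn/Ube3a/Ndn, with 146 summits in H2A.L.2-less cells and 95 in WT (log2 ratio 0.80 after correction for list length). The lowest was chr17:13000001-13100000 in Igf2r, with 208 in H2A.L.2-less and 328 in WT (-0.48). Past 1.5-fold were 5 windows higher in H2A.L.2-less cells, all in Snrpn/Ube3a/Ndn (6.58% of all windows), and 0 lower (4.18%). For 55 windows these counts are near the background or below it, and with 1 library a group no test was made.

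The genotype difference in the clusters followed what windows of like density did elsewhere. Grouped by their density in WT spermatocytes, a library outside the comparison, the 19 interval windows at 0.4 to 0.6 times their chromosome had a median log2 ratio of 0.495 in round spermatids, and all 3285 such windows had 0.50. At 1.5 times or more, the 9 interval windows had -0.295 and all 1910 windows -0.407. The H2A.L.2-less round spermatid list was therefore more even than the WT list at the clusters in the way it was genome-wide.

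**Figure D2:**
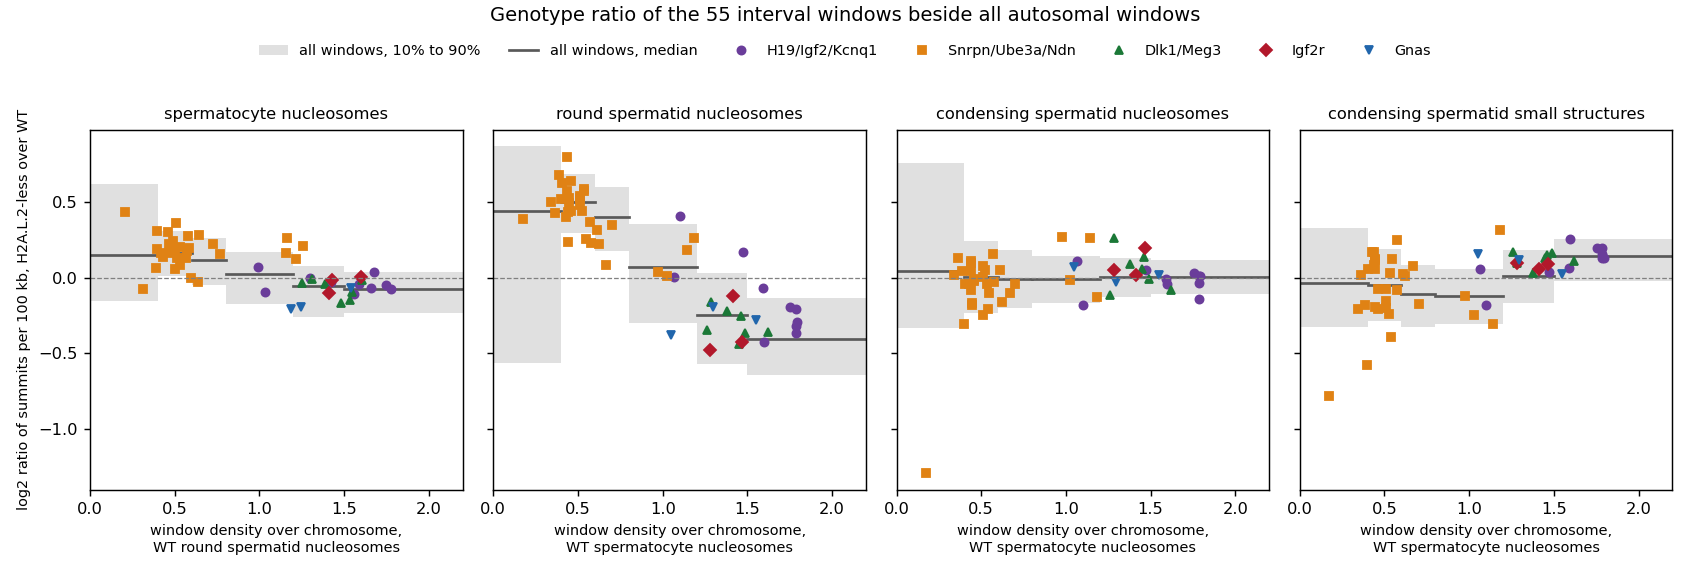
Log2 ratio of summits per 100 kb window, H2A.L.2-less over WT and corrected for list length, against the density of the window over its chromosome in a library outside the pair, for 4 comparisons. Coloured points are the 55 interval windows, and grey lines and boxes give the median and the 10% to 90% range of all windows of chromosomes 1 to 19 by density class. In round spermatids the medians of all windows lie at 0.50 in the class of 0.4 to 0.6 and at -0.407 in the densest class, and interval windows follow them.

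The other stages showed less. In spermatocytes Snrpn/Ube3a/Ndn stood at 0.17 (0.11 to 0.24), Gnas at -0.14, Dlk1/Meg3 at -0.08, H19/Igf2/Kcnq1 at -0.04 and Igf2r at 0.01, and no interval window passed 1.5-fold in either direction (0.171% of all windows higher and 0.129% lower). Against the flanks, Snrpn/Ube3a/Ndn was at 0.10 and the spermatocyte values of H19/Igf2/Kcnq1 and Dlk1/Meg3 turned to 0.03 each. Condensing nucleosomes lay between -0.05 (Snrpn/Ube3a/Ndn) and 0.09 (Igf2r), with all 5 intervals including 0. There 0 windows were higher (0.275%) and 1 was lower (0.108%).

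For small structures the ratios were 0.13 for Dlk1/Meg3 (0.05 to 0.21), 0.11 for H19/Igf2/Kcnq1 (0.04 to 0.17), 0.08 for Gnas, 0.05 for Igf2r and -0.09 for Snrpn/Ube3a/Ndn (-0.17 to -0.02). All 5 turned when every list was cut to its highest summits, at most as many as the shortest list holds. They went to -0.03 for Dlk1/Meg3, -0.03 for H19/Igf2/Kcnq1, -0.02 for Gnas, -0.08 for Igf2r and 0.12 for Snrpn/Ube3a/Ndn. The WT list has 5371290 and the H2A.L.2-less list 4114547 small structures and they differ in summit values too, and which of these goes with the turn was not tested. Against the flanks, Dlk1/Meg3 was at -0.0065. No window was higher (0.0333% of all windows) and 1 was lower (0.267%). It was the same window that was lower in condensing nucleosomes, chr7:67800001-67900000.

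Small structures were then set against the nucleosomes of the same condensing cells, on the same density scale. Small structures were relatively more frequent in the 4 dense clusters and less frequent in Snrpn/Ube3a/Ndn, in both genotypes. The log2 ratio in H2A.L.2-less cells was 0.64 in Dlk1/Meg3, 0.61 in Gnas, 0.39 in H19/Igf2/Kcnq1, 0.23 in Igf2r and -0.68 in Snrpn/Ube3a/Ndn. In WT it was 0.55 in Dlk1/Meg3, 0.55 in Gnas, 0.25 in H19/Igf2/Kcnq1, 0.27 in Igf2r and -0.64 in Snrpn/Ube3a/Ndn. The order of the clusters was nearly the same, with H19/Igf2/Kcnq1 and Igf2r changing places. Against flanks of 5 Mb, H19/Igf2/Kcnq1 turned to -0.09 in H2A.L.2-less cells and -0.11 in WT, and the ratios that stayed above 0 were 0.05 for Dlk1/Meg3 in H2A.L.2-less cells and 0.09 in WT, 0.13 for Gnas in both genotypes, and 0.38 for Igf2r in H2A.L.2-less cells and 0.40 in WT. Snrpn/Ube3a/Ndn was at -0.45 in H2A.L.2-less cells and -0.44 in WT.

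All 32 windows of Snrpn/Ube3a/Ndn had relatively fewer small structures than nucleosomes in both genotypes. Their median log2 ratio was -0.935 in H2A.L.2-less cells and -0.869 in WT, against -0.291 in H2A.L.2-less cells and -0.165 in WT over all windows. All 7 windows of Dlk1/Meg3, 3 of Igf2r and 3 of Gnas, and 8 of 10 of H19/Igf2/Kcnq1, were above 0 in both. Over all windows, 9125 of 24004 were above 0 and 14879 below in H2A.L.2-less cells. In WT 10163 of 24011 were above 0 and 13848 below. Past 1.5-fold were 8 interval windows higher in H2A.L.2-less cells (10.1% of all windows) and 5 in WT (5.18%). Lower were 23 in H2A.L.2-less cells (37% of all windows), 22 of them in Snrpn/Ube3a/Ndn, and 25 in WT (31.3%), 24 of them there. Windows with relatively fewer small structures than nucleosomes, past 1.5-fold, are thus common in the genome, and they make up most of Snrpn/Ube3a/Ndn.

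Between round spermatids and spermatocytes the clusters hardly differed in WT, with log2 ratios of later over earlier between -0.09 (H19/Igf2/Kcnq1) and 0.10 (Igf2r). In H2A.L.2-less cells they were 0.33 in Snrpn/Ube3a/Ndn, -0.08 in Gnas, -0.15 in H19/Igf2/Kcnq1, -0.19 in Igf2r and -0.22 in Dlk1/Meg3. Against the flanks of 5 Mb, the H2A.L.2-less ratio turned to 0.06 in H19/Igf2/Kcnq1 and 0.09 in Gnas and was -0.01 in Dlk1/Meg3, while Snrpn/Ube3a/Ndn stood at 0.31 and Igf2r at -0.21. Condensing nucleosomes over round spermatids gave -0.35 in Snrpn/Ube3a/Ndn, -0.17 in H19/Igf2/Kcnq1, -0.02 in Gnas, 0.08 in Dlk1/Meg3 and 0.29 in Igf2r in H2A.L.2-less cells. The same step in WT gave 0.12 in Snrpn/Ube3a/Ndn, -0.24 in H19/Igf2/Kcnq1, -0.29 in Gnas, -0.29 in Dlk1/Meg3 and -0.08 in Igf2r. The genotypes thus differ in sign at this step in Snrpn/Ube3a/Ndn, Dlk1/Meg3 and Igf2r. Against the flanks they did so in Snrpn/Ube3a/Ndn (-0.21 in H2A.L.2-less cells and 0.10 in WT), in Igf2r (0.23 in H2A.L.2-less cells and -0.16 in WT) and in H19/Igf2/Kcnq1 (-0.07 in H2A.L.2-less cells and 0.05 in WT), but not in Dlk1/Meg3 (-0.08 in H2A.L.2-less cells and -0.13 in WT). Each of these comparisons shares the round spermatid library with the one before it. Fragments were selected by size in the condensing libraries as labelled, and stage and fragment selection cannot be told apart.

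Along Snrpn/Ube3a/Ndn the summits were not evenly sparse. A stretch chosen after its values were seen, chr7:66600001-66870000, held between 22.4 and 34.3 summits per 10 kb in the 8 libraries. Sparser bins and a short dense piece, chr7:66930001-66952140, with 30.7 to 49.2 summits per 10 kb, lay between it and 50.1 kb with no summit in any list, from chr7:66952131 to 67002271, the only such stretch of 20 kb or more in the 5 intervals. Right after it, chr7:67000001-67050000 had 43.0 to 50.8 summits per 10 kb in the 8 libraries, with a median summit value of 3.07 to 7.10 times that of the list. From there to the end of the interval the density fell to 5.62 to 14.8 per 10 kb. The sparseness of the cluster thus lies mostly in this last part. The 100 kb windows from chr7:66400001 to 66600000 were sparse too, with 126 and 79 summits in WT spermatocytes against 230.9 on the rest of chromosome 7. Without chr7:66600001-67100000, which holds the dense pieces and most of the empty stretch, and chr7:67800001-67900000, the round spermatid genotype ratio was 0.50 in place of 0.42.

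In the dense stretch the condensing libraries differed by genotype in opposite ways. Nucleosomes there numbered 795 in H2A.L.2-less and 685 in WT condensing spermatids, and small structures 604 in H2A.L.2-less and 925 in WT. In spermatocytes the counts were 741 in H2A.L.2-less and 701 in WT cells, and in round spermatids 777 in H2A.L.2-less and 842 in WT cells. These counts are not corrected for list length. With that correction, the 100 kb windows from chr7:66600001 to 66900000 had genotype log2 ratios of 0.184, 0.012 and 0.038 in round spermatids, so the lower count there turned. Condensing nucleosomes had 0.265, -0.014 and 0.267 in the same order, and small structures -0.305, -0.245 and -0.121. The small-structure lists as a whole held 4114547 in H2A.L.2-less cells and 5371290 in WT.

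**Figure D3:**
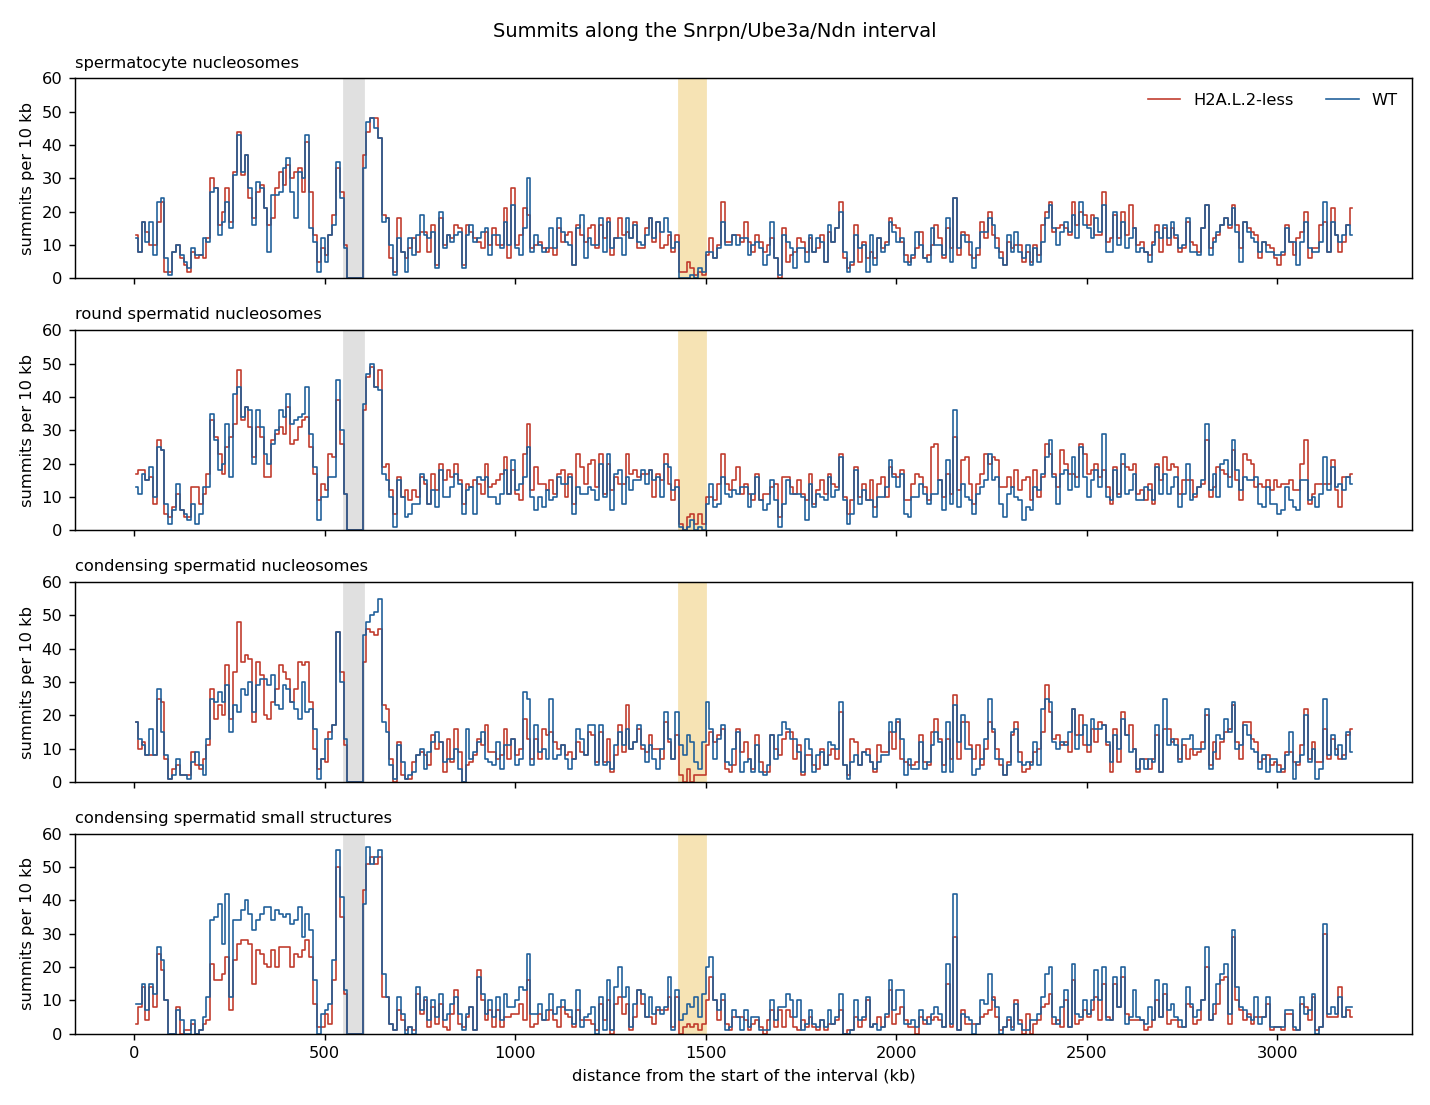
Summits per 10 kb along the 3.2 Mb Snrpn/Ube3a/Ndn interval, as distance from its start in kb, in 4 panels by library kind with H2A.L.2-less in red and WT in blue. The grey band is the stretch of 50.1 kb with no summit in any list, and the yellow band a segment where only the WT condensing libraries hold more than 20 summits (67 nucleosomes and 55 small structures).

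Single high summits were named where at least 4 libraries had their highest summit of the interval in the same 10 kb. In Snrpn/Ube3a/Ndn all 8 had it in chr7:67000001-67010000, just after the empty stretch. The H2A.L.2-less libraries reached 72.0 times the list median for spermatocytes, 61.7 times for round spermatids, 61.9 times for condensing nucleosomes and 31.9 times for small structures. The WT libraries reached 71.1, 91.1, 58.7 and 53.5 times in the same order. All 6 nucleosome summits lay within chr7:67004571-67004681 and both small-structure summits at chr7:67003471-67003481. The highest summits of the other 4 clusters stood between 1.92 and 6.71 times the list median, so these heights are far above them, and they stand in both genotypes and all stages. They were not alone in the interval. The highest summit reached 11.16 to 32.03 times in chr7:66930001-66952140 and 20.85 to 46.61 times in chr7:67050001-69600000, over the 8 libraries. No mm9 sequence was at hand, so the DNA beside the empty stretch was not examined. The cause of these heights was not tested.

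In H19/Igf2/Kcnq1 a site at chr7:150346841-150346861 was the highest small structure of the interval in both genotypes. It stood at 6.05 times the list median in H2A.L.2-less cells and 6.71 times in WT, with fuzziness scores of 36.7 in H2A.L.2-less cells and 40.6 in WT. Fuzziness, a score taken from the deposited lists, measures how widely fragments scatter about a summit. The list medians were 50.2 in H2A.L.2-less cells and 52.5 in WT, so this site is sharply placed. Nucleosome lists had their highest summit of that 10 kb at the same place, at 2.07 times in H2A.L.2-less and 2.97 times in WT spermatocytes, 2.27 times in WT round spermatids, and 2.4 times in H2A.L.2-less and 2.2 times in WT condensing spermatids. The H2A.L.2-less round spermatid list was the exception, with its highest at chr7:150341161 and 1.45 times. In Dlk1/Meg3 the 6 nucleosome lists had their highest summit within chr12:111250571-111251481, at 3.41 times the list median in H2A.L.2-less and 3.05 in WT spermatocytes, 2.61 in H2A.L.2-less and 3.58 times in WT round spermatids, and 2.52 in H2A.L.2-less and 2.56 in WT condensing spermatids. Their positions differed between lists, so this is not a single shared summit.

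Typical heights differed less than numbers. The median summit value of the nucleosome lists, over the list median, was between 1 and 1.12 in all 5 clusters, and over that of the rest of the chromosome it was between 0.980 and 1.12. Small structures varied more. In H19/Igf2/Kcnq1 they stood at 1.2 times the list median in H2A.L.2-less cells and 1.31 in WT. Dlk1/Meg3 had 1.2 in H2A.L.2-less cells and 1.25 in WT, and Snrpn/Ube3a/Ndn 0.9 in H2A.L.2-less cells and 0.869 in WT. Igf2r had 1.1 in H2A.L.2-less cells and 1.15 in WT, and Gnas 1.1 in H2A.L.2-less cells and 1.11 in WT. The median small-structure summit was thus also higher in the 4 dense clusters than in the sparse cluster. This did not hold for the high end. The 90th percentile in H2A.L.2-less cells was 2.6 times the list median in Snrpn/Ube3a/Ndn and 1.95 to 2.25 times in the 4 dense clusters. In WT it was 1.97 times in Snrpn/Ube3a/Ndn and 1.82 to 2.07 times in the other 4.

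Fuzziness differed most steadily in the 2 clusters of chromosome 7. Snrpn/Ube3a/Ndn had a lower median score than the rest of chromosome 7 in all 8 libraries. The difference, cluster minus rest, was -0.977 points in H2A.L.2-less and -1.36 in WT spermatocytes. Round spermatids had -0.340 in H2A.L.2-less cells and -0.928 in WT. It was -0.342 in H2A.L.2-less and -0.234 in WT condensing nucleosomes, and -2.72 in H2A.L.2-less and -1.93 in WT small structures. H19/Igf2/Kcnq1 had a higher score in all 8, by 0.299 points in H2A.L.2-less and 0.368 in WT condensing nucleosomes and by 1.82 in H2A.L.2-less and 1.65 in WT small structures, with spermatocytes and round spermatids between 0.995 and 1.45. Over its flanks of 5 Mb, H19/Igf2/Kcnq1 was higher by 0.0467 to 0.339 points only. The other 3 dense clusters were mixed. Gnas stood at -0.236 points in H2A.L.2-less and -0.0705 in WT condensing nucleosomes, and in H2A.L.2-less round spermatids Igf2r stood at -0.0815 and Dlk1/Meg3 at -0.00449, while the remaining 20 differences of these 3 clusters were above 0. In condensing nucleosomes the median score of Gnas, 54.07 in H2A.L.2-less cells and 54.15 in WT, was below that of the sparse cluster, 54.31 in both genotypes.

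How many summits of the clusters were shared between genotypes was asked by matching H2A.L.2-less summits to WT summits within 40 bp. In spermatocytes 62.6% of those in H19/Igf2/Kcnq1 were matched (Wilson interval 60.9% to 64.2%), against 55.9% on the rest of chromosome 7. Dlk1/Meg3 had 57.9%, Gnas 58.6%, Igf2r 56.3% and Snrpn/Ube3a/Ndn 53.0% (51.5% to 54.5%). In round spermatids the shares were 60.2% in Igf2r against 49.9% on the rest of chromosome 17, 58.2% in H19/Igf2/Kcnq1 and 45.8% in Snrpn/Ube3a/Ndn against 50.6% on the rest of chromosome 7, 57.7% in Dlk1/Meg3 against 49.2% and 55.7% in Gnas against 49.5%. Condensing nucleosomes were matched least, from 30.0% in Gnas to 34.8% in H19/Igf2/Kcnq1, and small structures most, from 72.4% in Snrpn/Ube3a/Ndn to 78.9% in Igf2r.

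A dense list offers more matches by position alone, so the shares were set beside those found after moving the WT list by 5 kb. On that scale the order was turned round. Snrpn/Ube3a/Ndn was matched 3.8 times as often as after the shift for spermatocytes, 3.03 times for round spermatids, 1.97 times for condensing nucleosomes and 5.15 times for small structures. The rest of chromosome 7 had 2.40, 2.22, 1.71 and 2.41 times in the same order, and H19/Igf2/Kcnq1 had 1.88, 1.82, 1.62 and 1.98 times. The sparse cluster has a low share after the shift (14.1% for small structures, against 31.9% on the rest of chromosome 7), and the shifted share is low where a list is sparse. Unadjusted, the share matched in the cluster was below that of the rest of chromosome 7 in all 4 pairs.

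Small structures of condensing spermatids of H2A.L.2-less cells coincided within 40 bp with round spermatid nucleosomes of the same genotype in 29.8% of cases in Snrpn/Ube3a/Ndn (28.1% to 31.6%), against 24.4% on the rest of chromosome 7. In WT the share was 42.6% there (40.9% to 44.2%), against 41.6%. After the shift of 5 kb, Snrpn/Ube3a/Ndn had 17% in H2A.L.2-less cells and 15.9% in WT, and the rest of chromosome 7 had 19.3% in H2A.L.2-less cells and 25.5% in WT. Small structures of this cluster thus met earlier nucleosomes 1.75 times as often as after the shift in H2A.L.2-less cells and 2.68 times in WT. In the other 4 clusters the figure was 1.06 to 1.19 times in H2A.L.2-less cells and 1.34 to 1.42 times in WT, below the rest of their chromosomes. Unadjusted, H19/Igf2/Kcnq1 was above the rest of chromosome 7 too, at 28.87% in H2A.L.2-less cells and 46.55% in WT. Its shares after the shift were also high, at 24.36% in H2A.L.2-less cells and 34.68% in WT. An unadjusted share above the rest is thus not particular to Snrpn/Ube3a/Ndn. The WT share of Gnas (39.9%) was the lowest of the 5 clusters in WT, and its H2A.L.2-less share (21.4%) the lowest in H2A.L.2-less cells.

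Spacing in the clusters was read from the distances between summits, as the height of the second peak (330 to 450 bp) over the trough before it (230 to 330 bp). Nucleosomes of spermatocytes and round spermatids were regularly spaced in the 5 intervals together, at 1.91 in H2A.L.2-less and 1.68 in WT spermatocytes. Round spermatids had 2.25 in H2A.L.2-less cells and 1.90 in WT. The rest of the 4 chromosomes had 1.89, 1.67, 2.16 and 1.83 in the same order. Condensing libraries lay between 1.02 and 1.07 in the intervals, so no regular repeat near this distance was seen in them. The clusters were a little above the rest in all 8 libraries, by as little as 1.019 against 1.018 in WT condensing nucleosomes. With every list cut to its highest summits, at most as many as the shortest list holds, they were above in 5 of 8. The intervals hold far fewer pairs of summits than the rest, and no counting interval is given. These small excesses therefore do not show a greater regularity.

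The ratio of Snrpn/Ube3a/Ndn lay below that of the other 4 intervals at both early stages. It rests on 7425 to 10223 pairs of summits in the cluster. No counting interval is given for this measure, so a small gap cannot be told from counting error. The cluster had 1.81 in H2A.L.2-less and 1.51 in WT spermatocytes, where the other 4 had 2.00 in H2A.L.2-less and 1.76 in WT cells. In round spermatids it was 2.24 in H2A.L.2-less and 1.61 in WT cells, and the other 4 had 2.28 in H2A.L.2-less and 2.08 in WT cells. The gap was thus small in H2A.L.2-less round spermatids and wide in WT. Distances between neighbouring summits were read only up to 1000 bp. In spermatocytes their median was 260 bp in Snrpn/Ube3a/Ndn in both genotypes. In H19/Igf2/Kcnq1 it was 210 bp in H2A.L.2-less cells and 200 bp in WT. The rest of the 4 chromosomes had 250 bp in H2A.L.2-less cells and 240 bp in WT. The limit removes more pairs where summits are sparse. In H2A.L.2-less cells Snrpn/Ube3a/Ndn kept 3404 pairs for 4283 summits, and H19/Igf2/Kcnq1 3173 for 3258. The median of the sparse cluster thus leaves out its long distances.

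**Figure D4:**
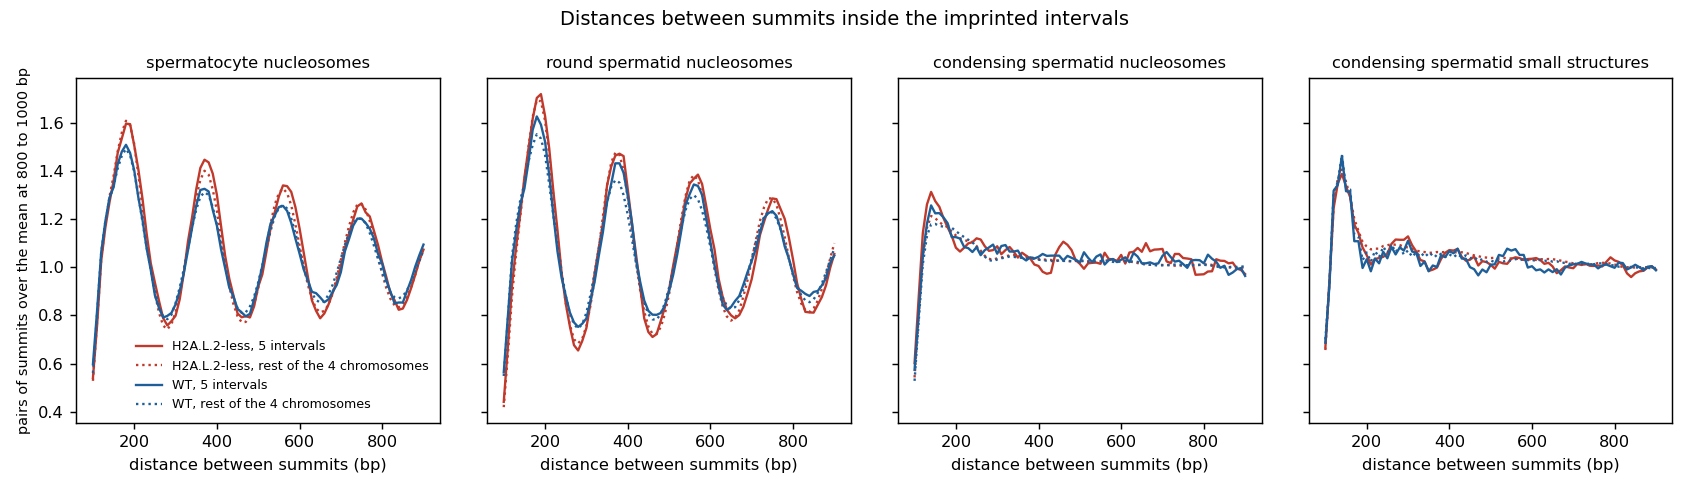
Pairs of summits by their distance (bins of 10 bp), relative to the average at 800 to 1000 bp, in 4 panels by library kind. Solid lines are the 5 imprinted intervals, dotted lines the rest of the 4 chromosomes, with H2A.L.2-less in red and WT in blue. Peaks recur in spermatocytes and round spermatids (second peak over trough 1.68 to 2.25 in the intervals) and are nearly flat in both condensing panels (1.02 to 1.07).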

How the data were processed

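Per the file headers, each deposited list gives positions with start, end, summit, summit value and fuzziness score. The summit value is a coverage signal made by the authors, with no visible normalization to depth, and the fuzziness score was used as deposited. All positions are 140 bp wide and no summits of a list are closer than 100 bp. Bowtie2 2.2.9, deepTools 2.2.4 and mm9 are in the submitters' processing notes. Settings of the position caller and read filters are not stated in the sources used here. The series design gives 3 merged runs and 207000000 to 753000000 reads per sample; the depth of single libraries is unknown, so a weak position can be missing from a shallow list.

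Groups came from sample titles, with 1 library each, so no test was made. Summits were counted in windows of 100 kb with at least 1 summit in any list, with exact Poisson intervals (95%), and matched within 40 bp, with Wilson intervals. Genotype and stage ratios of windows used the list totals of chromosomes 1 to 19 and 0.5 added to each count. Windows were called at 1.5-fold. Named windows are the highest and lowest of each interval and pair, and named summits those shared by 4 or more libraries within 10 kb. The members, lists and rules were chosen with earlier results of these data known, and the dense and sparse stretches of Snrpn/Ube3a/Ndn after their values were seen. Gene positions were not used, since the gene annotation is of the GRCm38.p6 build. Alternatives were other limits on summit value, equal numbers of summits (at most 3779744 per list), flanks of 5 Mb, bins of 10 kb, matching within 20 or 73 bp and a fold of 2. For equal numbers, summits tied at the limit were left out of each shortened list, so the numbers are equal only nearly. Counting and matching were tested on simulated data. Python 3.11.15, numpy 2.4.6, scipy 1.17.1, pandas 2.3.3 and matplotlib 3.10.9 were used.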

Additional observations from a re-analysis of the deposited data

How the results depend on the processing

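Of 40 cluster densities (5 clusters in 8 libraries), 32 lay above the rest of the chromosome. The number was 32 with summits at or above the list median, with equal numbers of summits and with bins of 10 kb, and 25 with flanks of 5 Mb. With flanks, the log2 density of small structures turned to -0.0517 in H19/Igf2/Kcnq1 and -0.0097 in Dlk1/Meg3 in H2A.L.2-less cells, and to -0.0697 in H19/Igf2/Kcnq1 and -0.0032 in Dlk1/Meg3 in WT. Condensing nucleosomes of Dlk1/Meg3 turned to -0.0548 in H2A.L.2-less cells and -0.0947 in WT, and WT round spermatids of H19/Igf2/Kcnq1 to -0.0068. Flanks also turned 6 of 20 genotype ratios and 6 of 30 stage ratios. Of 20 genotype ratios, 10 were above 0, against 6 with equal numbers of summits, where all 5 of the small structures turned. Interval windows past the fold numbered 322 over the comparisons at 1.5-fold and 146 at 2-fold. No share over all windows was set beside these sums, so they show only that fewer windows pass the higher fold. Spacing regularity of the intervals was above the rest in 8 of 8 libraries, by the small margins given above, and in 5 with equal numbers. Of 30 matched shares 22 lay above the rest, against 19 within 20 bp and 23 within 73 bp. The cause of these shifts was not tested. List length and the floor of the summit values limit what a missing summit can mean. No paired analysis was possible because every group has 1 library, so the groups share fewer than 2 replicate numbers.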

Other observations

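A segment of Snrpn/Ube3a/Ndn, chr7:67830001-67900000, was chosen after its values were seen. The condensing libraries of H2A.L.2-less cells held 12 nucleosome summits and 14 small structures there, against 67 and 55 in the WT condensing libraries. Spermatocytes had 16 summits in H2A.L.2-less cells and 6 in WT, and round spermatids 20 in H2A.L.2-less cells and 6 in WT. The WT condensing libraries are thus the only ones of the 8 with more than 20 summits in the segment. Its summits are low, with medians between 0.7 and 0.94 times the list median in the 8 libraries. The 100 kb window around it, chr7:67800001-67900000, had the lowest genotype ratio of all interval windows, with 45 condensing nucleosomes in H2A.L.2-less cells and 108 in WT (log2 ratio -1.29) and 38 small structures in H2A.L.2-less cells and 86 in WT (-0.78). Whether the DNA of the 2 condensing WT libraries came from the same preparation is not given in the sources used here, and the cause was not tested.

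Within H19/Igf2/Kcnq1, 3 of 10 windows were above 0 in the round spermatid genotype ratio, against 13690 of 24008 over all windows. The highest was chr7:149900001-150000000, where round spermatids had 280 summits in H2A.L.2-less cells and 239 in WT (log2 ratio 0.41). The others stood at 0.17 and 0.007. In the highest window small structures numbered 140 in H2A.L.2-less cells and 208 in WT (-0.18). In H2A.L.2-less cells and in WT it was also among the 2 windows of the cluster with relatively fewer small structures than nucleosomes.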
